A study of Rattus norvegicus with 9 samples.

Results

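The genes of the cytosolic ribosome were followed in rat cardiosphere-derived cells (CDCs), heart cells that gather into spheres (cardiospheres) in culture. Members were the rows of the gene table whose symbol names a protein of the large subunit (Rpl, Rplp) or of the small subunit (Rps, Rpsa). There were 79 such rows under 73 symbols among 19919 genes, of which 49 belonged to the large and 30 to the small subunit. CDCs from the hearts of wild-type (WT) rats were grown for 3 days on 1 of 3 substrates, with 3 libraries of each group and no other treatment. The OPC group grew on octyl hydroxypropyl cellulose ester, a liquid-crystal substrate. The ULA group grew on an ultralow attachment surface, where cells stay in suspension, and the PS group grew on polystyrene, where they attach. The methods name 4-week-old Sprague Dawley rats as the source of the cells. Spheres on PS form from attached cells and keep supporting cells at their base, so RNA of the PS group need not come from spheres alone. Replicates are labelled biological, but no source ties them to separate animals, and p-values here measure the spread between these cultures.

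A cytosolic ribosome joins a small subunit, which reads the mRNA, to a large subunit, which forms the peptide bond. Cells make the proteins of both subunits in step with each other and with ribosomal RNA. Most of their mRNAs begin with a C followed by a run of pyrimidines (C or T), the 5′ terminal oligopyrimidine (TOP) tract, through which mTORC1 sets how strongly they are translated. Growing cells spend a large part of their transcription on these genes.

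The first bases of 8 members, those that best show the patterns described below, are given as windows of 30 bases that start 15 bases before the first base of the gene in RefSeq. Sequences are from RefSeq (GRCr8, a later build than the rn6 of the expression values), 5′ to 3′ on the strand of the gene. Capitals mark a run of at least 5 bases that are all C or T and that includes the annotated first base.
Rpl10: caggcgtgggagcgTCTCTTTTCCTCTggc
Rps14: cccttccgTCTCTCTCTTTCCggtggagga
Rps27: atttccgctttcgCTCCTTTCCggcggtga
Rpl22: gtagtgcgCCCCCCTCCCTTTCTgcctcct
Rplp0: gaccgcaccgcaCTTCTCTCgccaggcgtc
Rpsa: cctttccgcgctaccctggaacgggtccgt
Rps16: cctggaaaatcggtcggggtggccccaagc
Rps27l: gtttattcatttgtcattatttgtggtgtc
These windows lie at chrX:157205835-157205864 (plus strand, Rpl10), chr18:56498245-56498274 (plus, Rps14), chr2:177964592-177964621 (minus, Rps27), chr5:168117946-168117975 (plus, Rpl22), chr12:46718376-46718405 (minus, Rplp0), chr8:128728864-128728893 (plus, Rpsa), chr1:92770643-92770672 (plus, Rps16) and chr8:76443643-76443672 (plus, Rps27l). Of the 48 members that matched the promoter table, 27 (56.2%) had such a run, against 11.7% of all 27457 promoters in the table. Rpl10, Rps14, Rps27, Rpl22 and Rplp0 had it. Rpsa, Rps16 and Rps27l did not at the start RefSeq gives, which need not be the start used in these cells.

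No source names the unit of the deposited values, which behave as FPKM (reads per gene divided by gene length and by the size of the library) and are called so here. A library's reads are known only relative to the first PS library, at 0.874 to 1.18 times its depth for the others, so no counting interval can be given. Each comparison is the difference of means of log2(FPKM + 1), written log2FC, from 1 limma fit over the 9 libraries. A gene is called higher or lower at a Benjamini-Hochberg adjusted p of at most 0.05 over the 12513 genes tested, those with at least 1 FPKM in at least 3 libraries. Calls were common in these data, and over all genes tested the median log2FC was 0.06 for OPC vs ULA, 0.11 for OPC vs PS and 0.06 for ULA vs PS. Median-ratio rescaling brought the OPC vs PS median to 0.0048 and the share of higher genes among those called to 49.4%, against 62.8% without it. For OPC vs ULA that share was 59.8% as deposited and 49.8% with upper-quartile rescaling.

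The mesenchymal markers of CDCs were measured in 11 rows, with summed levels of 7885 to 7982 FPKM on OPC, 8476 to 9002 FPKM on ULA and 10273 to 10716 FPKM on PS. Of 9 cardiomyocyte marker rows, 7 stayed under 1 FPKM in all libraries, as did all 4 endothelial rows and 5 of 7 macrophage rows, among them Ptprc. The 7 macrophage rows, chiefly Cd68 and Cd14, summed to 43.6 to 49.4 FPKM in OPC libraries, 73.6 to 77.8 FPKM in ULA libraries and 20.2 to 22.5 FPKM in PS libraries. The 5 smooth muscle rows summed to 139 to 244 FPKM in OPC libraries, 74.8 to 79.8 FPKM in ULA libraries and 4336 to 4415 FPKM in PS libraries, the libraries in which ribosomal protein genes were also highest. The 3 glial rows summed to 18.1 to 20.4 FPKM in OPC libraries, 21.7 to 22.6 FPKM in ULA libraries and 4.69 to 5.55 FPKM in PS libraries. The part of such cells in the results was not tested. Fewer cells of a type and less RNA per cell cannot be told apart in such bulk samples.

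The ribosomal protein genes took the smallest share of a library on OPC and the largest on PS. The members held 2.46, 2.50 and 2.63% of the summed FPKM in the 3 OPC libraries. They held 3.20, 3.62 and 3.41% in the ULA libraries and 4.84, 4.93 and 4.94% in the PS libraries. The 3 groups did not overlap, and the mean share of the OPC group was 0.742 times that of the ULA group and 0.516 times that of the PS group. The ULA share was 0.696 times the PS share. These shares, and the subunit sums below, leave out 89 rows of ribosomal proteins under other symbols, among them 13 proteins with no member. With those rows the mean shares were 3.15% on OPC, 4.23% on ULA and 6.02% on PS. The ULA libraries varied most, and replicate 2 was the highest of the 3 ULA libraries for 60 of the 72 members tested. Genes of the mitochondrial genome held 10.8 ± 0.276% of a library on OPC, 9.71 ± 0.431% on ULA and 12 ± 0.513% on PS (SD, n = 3).

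**Figure D1:**
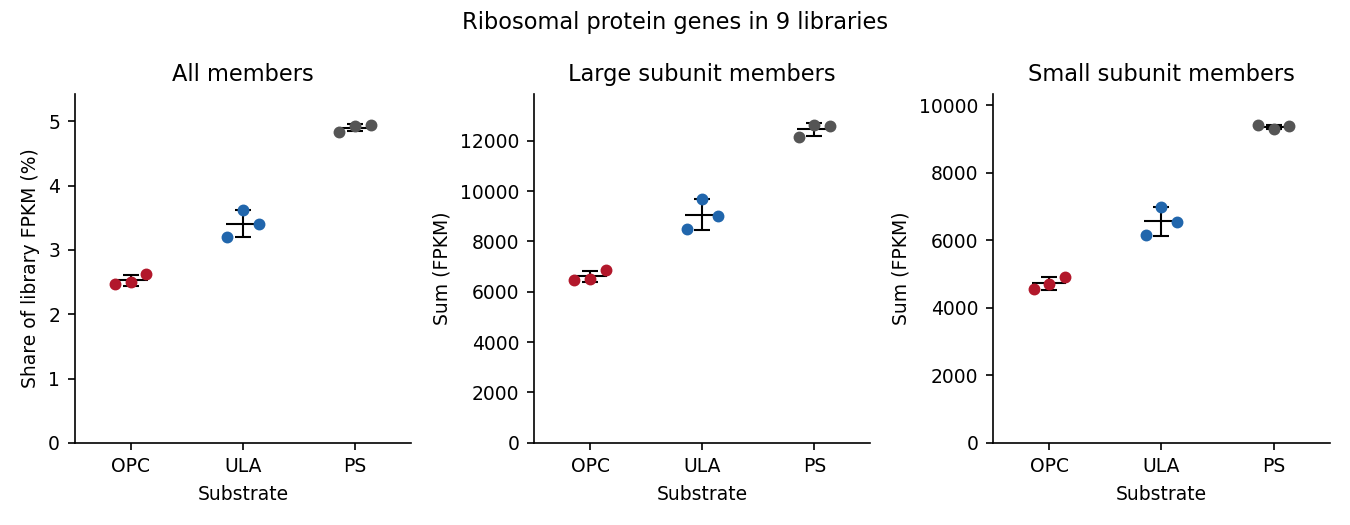
Share of each library's summed FPKM held by the members (left, in percent) and the summed FPKM of large and small subunit members (middle and right), by substrate. Points are libraries and bars are means ± SD (n = 3). Both subunits increase in the order OPC, ULA, PS with no overlap.

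Both subunits moved together. Large subunit members summed to 6609 ± 209 FPKM on OPC, 9068 ± 599 FPKM on ULA and 12456 ± 257 FPKM on PS. Small subunit members summed to 4729 ± 187, 6561 ± 426 and 9367 ± 53.9 FPKM on OPC, ULA and PS. The ratio of large to small subunit sums was 1.40 ± 0.0212 on OPC, 1.38 ± 0.00508 on ULA and 1.33 ± 0.0338 on PS. The PS ratios, from 1.29 to 1.36, lay below those of all OPC and ULA libraries, which ran from 1.38 to 1.42 and from 1.38 to 1.39.

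Of the 79 rows, 72 passed the filter on low values (43 large and 29 small subunit). The other 7 stayed at or under 1.47 FPKM in all libraries, namely Rpl35a, Rpl37, Rpl39, Rpl39l, Rpl3l, Rplp2 and Rps6. Of the 72, 67 were lower on OPC than on PS and 0 were higher by limma's adjusted p (67 passed an unadjusted p of 0.05), beside 23.9% of all genes tested that were lower and 40.4% that were higher. Their median log2FC was -0.89, with quartiles of -1.05 and -0.78. Taking only genes with a log2FC of at least 1 in size, 23 members were lower DEGs and 0 were higher DEGs, beside 6.11% and 6.6% of all genes tested.

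Between OPC and ULA, 56 members were lower on OPC and 1 was higher, beside 21.7% and 32.2% of all genes tested. The median log2FC was -0.48. Between ULA and PS, 56 members were lower on ULA and 1 was higher, beside 30.5% and 38.4% of all genes tested, with a median log2FC of -0.48. In each of these comparisons 1 member was a lower DEG and 0 were higher DEGs. The lower DEG was Rpl30 in OPC vs ULA, beside 2.52% lower and 1.81% higher DEGs among all genes tested. It was Rps19 in ULA vs PS, beside 7.39% and 8.42%. Both are rows with further copies in the table.

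The 51 members with a mean of at least 100 FPKM were also set beside the 631 genes tested at that level. All 51 were lower on OPC than on PS, beside 46.6% of genes at that level. Of the same 51, 47 were lower in OPC vs ULA, beside 38.7%, and 43 were lower in ULA vs PS, beside 50.2%. By limma's adjusted p 0 of the 51 were higher in OPC vs PS, OPC vs ULA or ULA vs PS, beside 38.8%, 42.8% and 39.8% of genes at that level. At an unadjusted p of 0.05, 51, 47 and 44 of them passed in these comparisons.

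Complete separation in the order OPC below ULA below PS, with every library of a group apart from those of the next, was seen for 47 of the 72 members (65.3%) and for 3.2% of all genes tested. Taken pair by pair, 66 members were lower with no overlap in OPC vs PS, beside 26.4% of all genes tested, 58 in OPC vs ULA, beside 24.7%, and 57 in ULA vs PS, beside 32%. The lowest of the 9 libraries was an OPC library for 69 members, and the highest was a PS library for 67.

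The medians of the subunits were close. For OPC vs PS the median log2FC was -0.86 over large and -0.92 over small subunit members, with 40 of 43 and 27 of 29 called lower. For OPC vs ULA the medians were -0.42 and -0.49, with 34 and 22 called lower. For ULA vs PS they were -0.48 and -0.51, with 33 and 23 called lower. The difference of the medians, large minus small, was 0.06, 0.07 and 0.03 for OPC vs ULA, OPC vs PS and ULA vs PS. It reached 0.11 for OPC vs ULA without OPC replicate 2, 0.13 and 0.10 for OPC vs PS without OPC replicate 3 and PS replicate 3, and 0.06 for ULA vs PS without PS replicate 3 or ULA replicate 1. Its sign turned for OPC vs ULA among members of at least 100 FPKM (-0.016) and for ULA vs PS among rows alone for their protein (-0.0076), so no order of the subunits can be read from it in these comparisons. For OPC vs PS it stayed above 0 in every alternative, from 0.037 with a pseudocount of 0.1 to 0.13 without OPC replicate 3. No test was made of this small difference.

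**Figure D2:**
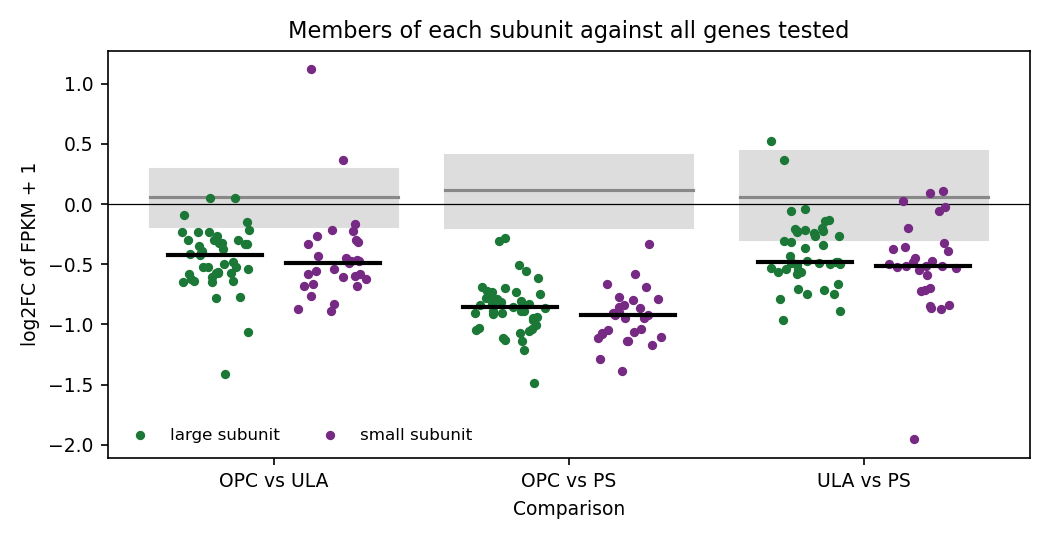
Difference between groups on the log2(FPKM + 1) scale (log2FC) of the tested large and small subunit members in each comparison. Each point is 1 member and black lines are medians. Grey boxes and lines give the quartile range and the median of all 12513 genes tested, and nearly all members lie below the grey line.

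The member with the highest level was Rplp0, on chromosome 12 of rn6 from 46791528 to 46794797, which encodes the base of the P stalk that recruits translation factors and is often used as a reference gene in qPCR. It had 504, 512 and 544 FPKM in OPC libraries, 607, 699.6 and 651 FPKM in ULA libraries and 1199, 1226 and 1197 FPKM in PS libraries. No groups overlapped. The log2FC was -1.21 for OPC vs PS (standard error 0.05, limma's adjusted p = 4.36e-08), -0.32 for OPC vs ULA (adjusted p = 6.08e-04) and -0.89 for ULA vs PS (adjusted p = 2.79e-07), so most of the difference lay between ULA and PS.

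Rpsa encodes a small subunit protein near the mRNA exit, also known as a laminin receptor precursor, and lies on chromosome 8 from 128806129 to 128809986. It had 384, 375 and 411 FPKM in OPC libraries, 434, 491 and 436 FPKM in ULA libraries and 833, 821 and 821 FPKM in PS libraries. The OPC and ULA groups were close without overlapping (log2FC -0.22, limma's adjusted p = 0.00666), while ULA libraries stood well below PS libraries (log2FC -0.86, adjusted p = 3.71e-07). Rps16, a protein of the small subunit on chromosome 1 from 85405512 to 85408444, had the same form. It had 104, 105 and 108 FPKM in OPC libraries, 121, 141 and 129 FPKM in ULA libraries and 239.8, 235 and 242 FPKM in PS libraries.

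Rps20, a small subunit protein on chromosome 5 from 16706082 to 16706909, fell at both steps. It had 276, 285 and 290.5 FPKM in OPC libraries, 433, 519 and 496 FPKM in ULA libraries and 673, 701 and 706 FPKM in PS libraries. No groups overlapped. Its log2FC was -0.76 for OPC vs ULA (limma's adjusted p = 7.91e-06), -0.53 for ULA vs PS (adjusted p = 3.91e-05) and -1.29 for OPC vs PS (adjusted p = 8.57e-08). The 4 further rows of this protein hold little, and its rows summed gave the same log2FC of -1.29 for OPC vs PS.

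A different form was seen in Rps27, Rps14, Rpl10, Rpl22 and Rps21, which were lower on OPC than on both other substrates while the ULA and PS libraries overlapped. Rps28 and the chromosome 5 row of Rps27a (both below) also had this form, as did Rpl36. Rpl36 had 205, 180 and 116 FPKM in OPC libraries, 258, 326 and 259 FPKM in ULA libraries and 324, 331 and 325 FPKM in PS libraries. Rps27, a zinc-finger protein of the small subunit, lies on chromosome 2 from 189572176 to 189573280. It had 117, 125 and 123 FPKM in OPC libraries, 211, 251 and 219 FPKM in ULA libraries and 195, 205 and 237 FPKM in PS libraries. The log2FC was -0.89 for OPC vs ULA (standard error 0.08, limma's adjusted p = 1.68e-05) and 0.10 for ULA vs PS (adjusted p = 0.316). Rps14, one of the genes lost in the human 5q- syndrome, is on chromosome 18 from 56044369 to 56047316. It had 171, 180.2 and 187 FPKM in OPC libraries, 283, 344 and 339 FPKM in ULA libraries and 301, 322 and 359.7 FPKM in PS libraries. Its log2FC was -0.83 for OPC vs ULA (adjusted p = 3.66e-05).

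Rpl10, which joins the large subunit late and lies near the site where tRNA binds, is on chromosome X from 156438251 to 156440461. It had 483, 475 and 495 FPKM in OPC libraries, 666, 778 and 719.6 FPKM in ULA libraries and 729, 751 and 743 FPKM in PS libraries. The log2FC was -0.57 for OPC vs ULA (limma's adjusted p = 1.64e-05) and -0.04 for ULA vs PS (adjusted p = 0.487). Rpl22, a large subunit protein that also binds other RNAs, had 79.3, 79.1 and 84.3 FPKM in OPC libraries, 124, 134 and 125 FPKM in ULA libraries and 127, 145 and 148 FPKM in PS libraries. Rps21, a small subunit protein, had 79.4, 111 and 103 FPKM in OPC libraries, 140.5, 175 and 154 FPKM in ULA libraries and 132, 176 and 156 FPKM in PS libraries, and its 3 libraries varied more in each group than those of Rpl10.

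Whether a member moved against the other members was tested by subtracting from each value the median of the tested members in the same library and refitting all genes. This is a median of levels, and its change need not equal the median log2FC. By adjusted p, 29 members stood above it and 3 below in OPC vs PS. The counts were 29 and 4 in OPC vs ULA, and 15 and 13 in ULA vs PS. In both OPC comparisons, distances above it are therefore wider than from the median log2FC. For ULA vs PS, Rps27 then stood 0.54 above the members' median (limma's adjusted p = 6.18e-06), Rps14 0.42 above (adjusted p = 9.17e-05), Rpl10 0.41 above (adjusted p = 2.05e-05) and Rps21 0.47 above (adjusted p = 0.00462). In the same comparison Rplp0 stood at -0.44 (adjusted p = 2.01e-05), Rps16 at -0.42 (adjusted p = 8.25e-06) and Rpsa at -0.42 (adjusted p = 3.10e-05). Of the 51 members with a mean of at least 100 FPKM, 26 differed more between OPC and ULA than between ULA and PS, and 25 differed more between ULA and PS. ULA libraries enter both differences, with opposite sign.

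**Figure D3:**
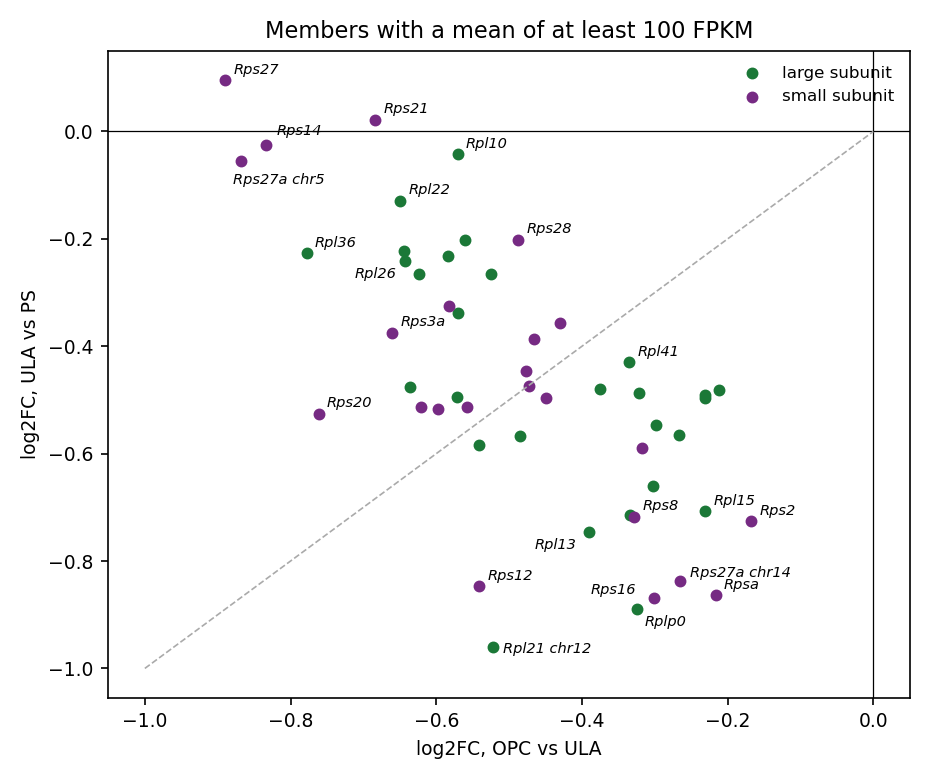
Difference between OPC and ULA (horizontal) and between ULA and PS (vertical) on the log2(FPKM + 1) scale, for the 51 members with a mean of at least 100 FPKM. Rps27, Rps14, Rps21 and Rpl10 lie near 0 on the vertical axis, and Rplp0, Rps16 and Rpsa lie near the bottom. The dashed line marks equal differences.

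**Figure D4:**
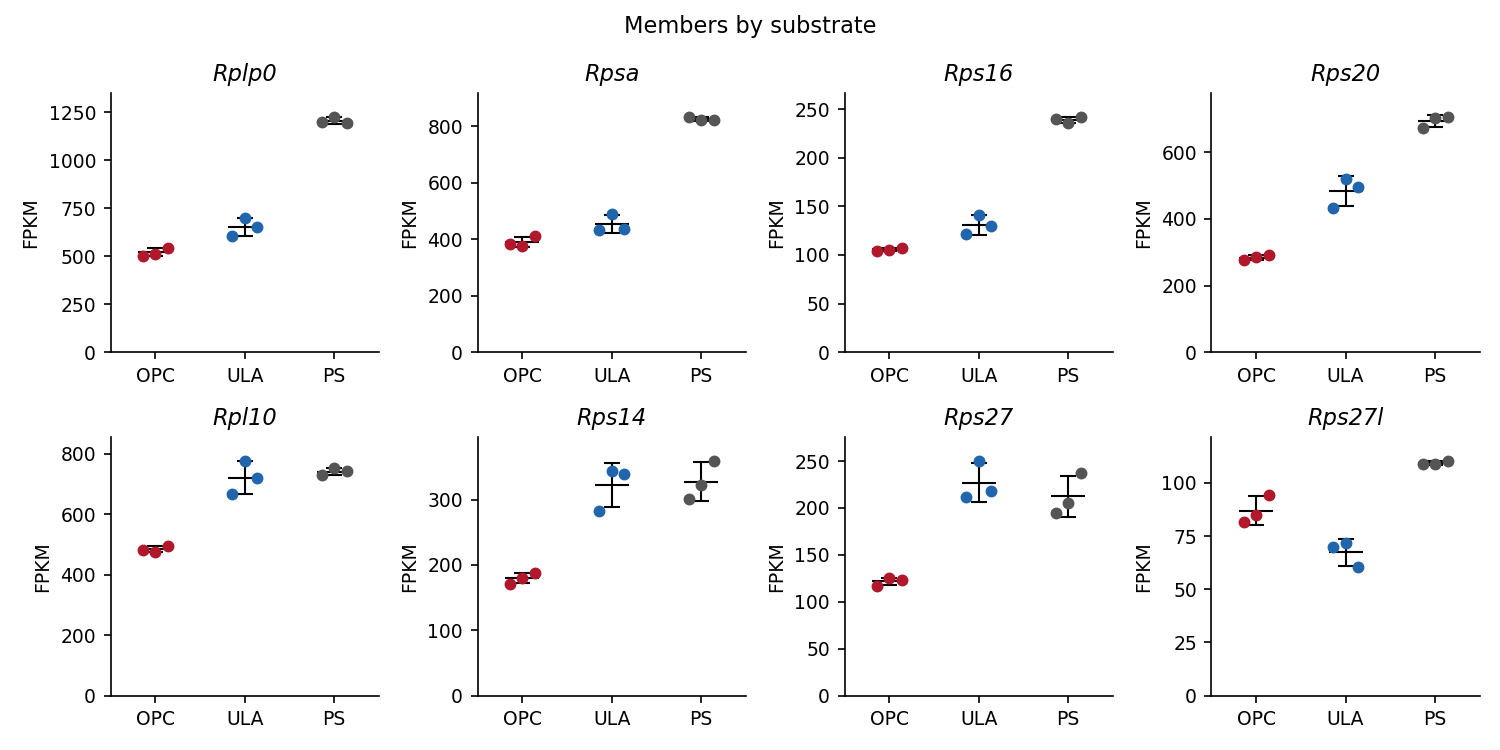
FPKM of 8 members by substrate. Points are libraries and bars are means ± SD (n = 3). In Rplp0, Rpsa, Rps16 and Rps20 the PS libraries stand apart at the top, in Rpl10, Rps14 and Rps27 ULA and PS libraries overlap, and in Rps27l the ULA libraries are lowest.

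Taking a departure as a difference of at least 0.5 from the members' median with an adjusted p of at most 0.05, 4 members departed in OPC vs ULA, 4 in OPC vs PS and 2 in ULA vs PS, 8 different members in all. By the same rule 65.5%, 88.4% and 57.4% of all genes tested departed from the members' median in these comparisons. With so many genes departing, the adjustment over all genes changed limma's p little. In OPC vs ULA the unadjusted and adjusted p were 0.0244 and 0.0294 for Rps19, and 0.0312 and 0.0370 for Rpl38. For Rpl10l in OPC vs PS they were 0.00768 and 0.00848. These calls are thus close to unadjusted ones among the 72 members tested. Rps27l, a close copy of Rps27, is on chromosome 8 from 72741155 to 72746090. It had 81.5, 84.9 and 94.5 FPKM in OPC libraries, 69.8, 71.8 and 60.3 FPKM in ULA libraries and 109, 109 and 110.5 FPKM in PS libraries. The groups did not overlap, and ULA libraries were lowest. It was the 1 member called higher in OPC vs ULA (log2FC 0.37, standard error 0.07, limma's adjusted p = 0.00184), and it stood 0.94 above the members' median in that comparison (adjusted p = 8.50e-07) and 0.69 above it in OPC vs PS (adjusted p = 3.23e-06).

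Rpl13a, a large subunit protein known in human cells for silencing inflammatory mRNAs after release from the ribosome, had 11.8, 11.3 and 13.7 FPKM in OPC libraries, 10.3, 12.2 and 13.2 FPKM in ULA libraries and 22.7, 20.4 and 20.5 FPKM in PS libraries. The OPC and ULA groups overlapped, and Rpl13a stood 0.62 above the members' median in OPC vs ULA (limma's adjusted p = 9.94e-05). Rpl10l, a copy of Rpl10 known from the testis, had 1.85 to 3.37 FPKM in OPC libraries, 2.09 to 4.52 FPKM in ULA libraries and 2.84 to 4.89 FPKM in PS libraries. Its groups overlapped, and it stood 0.74 above the members' median in OPC vs PS (adjusted p = 0.00848).

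The other departing members were Rps27 (above), Rpl30, Rpl36a, Rpl38 and Rps19, and each of them has further rows of its protein in the table. The Rpl30 row spans 461 bases on chromosome 10 from 38024477 to 38024937, carries an ID that RefSeq names Rpl30l2, and was the 1 member called higher in ULA vs PS. It had 23.4, 16.9 and 22.8 FPKM in OPC libraries, 41.2, 42.6 and 49.9997 FPKM in ULA libraries and 35.5, 31.4 and 35.8 FPKM in PS libraries (log2FC 0.37 for ULA vs PS, limma's adjusted p = 0.0203). With its 3 rows summed, Rpl30 had 199, 197 and 215 FPKM in OPC libraries, 315, 389 and 340.2 FPKM in ULA libraries and 351, 398 and 392 FPKM in PS libraries, and the ULA and PS libraries overlapped. The Rpl36a row, 321 bases long and on another chromosome than the gene in RefSeq, had 14.6, 18.8 and 22.1 FPKM in OPC libraries, 20.9, 24.9 and 22.2 FPKM in ULA libraries and 26.8, 28.8 and 23.8 FPKM in PS libraries, and it stood 0.52 above the members' median in OPC vs PS (adjusted p = 0.00236). Its log2FC there was -0.51, beside a median log2FC of -0.89 over the members, so it is nearer to that median. A second row of this protein, with the symbol Rpl36al and the description of L36a, is on chromosome X and had 41.5, 45.5 and 44.5 FPKM in OPC libraries, 72.3, 86.3 and 74.1 FPKM in ULA libraries and 77.1, 82.6 and 84.2 FPKM in PS libraries, with ULA and PS libraries overlapping as for Rps27 and Rpl10. The 3 rows of this protein summed to 96.1, 110.4 and 118 FPKM in OPC libraries, 143, 174 and 159 FPKM in ULA libraries and 154, 162 and 168 FPKM in PS libraries, and the sum stood 0.30 above the members' median in OPC vs PS, under the 0.5 set for a departure.

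With the rows of each protein summed, none of these 5 departed by the same rule. Rps27 stood 0.48 (limma's adjusted p = 5.10e-05) and Rpl30 0.25 above the members' median in ULA vs PS, Rps19 stood 0.26 above it in OPC vs ULA (adjusted p = 0.196), and Rpl38 stood 0.51 above it in OPC vs ULA (adjusted p = 0.0803). Rps27l, Rpl13a and Rpl10l, which have 1 row each, still departed. Summed, 3 further proteins departed, namely Rplp0 in ULA vs PS (at -0.51, limma's adjusted p = 4.01e-06) and Rpl35a and Rplp2 in OPC vs PS (0.76 and 1.22 above, adjusted p = 1.42e-05 and 0.0227). The ULA vs PS log2FC of Rplp0 was -0.89 with and without summing, and its other row had a mean of 0.0077 FPKM. Its move from -0.44 to -0.51 thus came from a shift of the members' median.

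Copies of ribosomal protein genes bear on the values of many members. Of the 79 rows, 45 share their protein with another row of the table, counting 89 further rows that carry another symbol, and 9 lie on another chromosome than the gene of that ID in RefSeq. Rps27a, which encodes ubiquitin fused to a small subunit protein, has a row on chromosome 14 from 113966611 to 113968268 and a row on chromosome 5 from 138628482 to 138629026. The chromosome 14 row had 116, 237 and 127 FPKM in OPC libraries, 172, 207 and 172 FPKM in ULA libraries and 413, 228 and 374 FPKM in PS libraries. The chromosome 5 row had 205, 102 and 217 FPKM in OPC libraries, 272, 329 and 311 FPKM in ULA libraries and 250.5, 411 and 304 FPKM in PS libraries. In the OPC and PS libraries the chromosome 14 row was high where the chromosome 5 row was low. The chromosome 14 row was called lower in OPC vs PS although its groups overlapped (log2FC -1.10, limma's adjusted p = 0.007). Their sum was 321, 339.7 and 344 FPKM in OPC libraries, 444, 536 and 483 FPKM in ULA libraries and 664, 638 and 678 FPKM in PS libraries. Within the OPC and PS groups the coefficient of variation was 36.1% and 25.4% for the row with the higher mean and 3.67% and 3.06% for the sum.

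**Figure D5:**
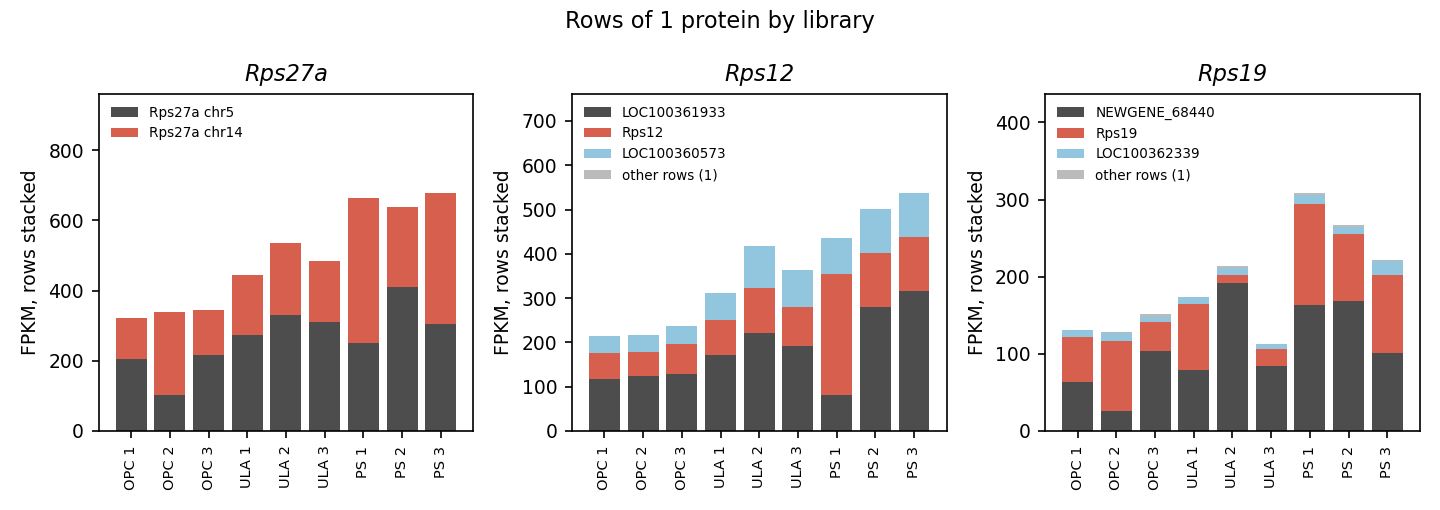
FPKM of the rows of Rps27a, Rps12 and Rps19 stacked by library. Colours are rows of the table and the bar height is their sum. In Rps27a the rows trade places between libraries while the sum stays close within a group, and in Rps19 the sum also varies.

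Rps12 showed the like in PS replicate 1. Its row had 58.7, 56.1 and 67.2 FPKM in OPC libraries, 77.1, 101 and 88.6 FPKM in ULA libraries and 275, 121 and 122 FPKM in PS libraries, and another row of this protein (LOC100361933) had 118, 123 and 129 FPKM in OPC libraries, 172, 222 and 192 FPKM in ULA libraries and 80.6, 280.3 and 316 FPKM in PS libraries. The 4 rows of Rps12 summed to 215, 217 and 237 FPKM in OPC libraries, 312, 417 and 363 FPKM in ULA libraries and 435, 501 and 538 FPKM in PS libraries, with no overlap. Rps19, a gene mutated in Diamond-Blackfan anemia in humans, had 58.5, 90.3 and 37.4 FPKM in OPC libraries, 85.4, 9.11 and 22.3 FPKM in ULA libraries and 131, 86.8 and 101 FPKM in PS libraries in a row on chromosome 9. Its OPC vs ULA log2FC of 1.12 did not pass (limma's adjusted p = 0.178), although it stood 1.70 above the members' median (adjusted p = 0.0294). Its 4 rows summed to 131, 128 and 152 FPKM in OPC libraries, 174, 214 and 113 FPKM in ULA libraries and 309, 266 and 221 FPKM in PS libraries, and the OPC and ULA groups overlapped.

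For Rps2, a protein of the mRNA entry channel, the row had 409, 416 and 493 FPKM in OPC libraries, 473, 471 and 534 FPKM in ULA libraries and 921, 777 and 752 FPKM in PS libraries. Its 2 rows summed to 639.8, 631 and 651 FPKM in OPC libraries, 622, 661 and 671 FPKM in ULA libraries and 1206, 1127 and 1155 FPKM in PS libraries. The OPC and ULA groups then overlapped (log2FC -0.02, limma's adjusted p = 0.636), and both lay below the PS group (log2FC -0.86 for OPC vs PS, adjusted p = 5.93e-08).

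Summing did not settle every protein. The Rpl7a row that starts at 4867233 on chromosome 3 had 8.21, 9.03 and 7.21 FPKM in OPC libraries, 11.7, 10.4 and 97.7 FPKM in ULA libraries and 13.8, 16.7 and 17.2 FPKM in PS libraries, and the 3 rows of Rpl7a summed to 43.5, 39.5 and 42.4 FPKM in OPC libraries, 49.5, 49.5 and 132 FPKM in ULA libraries and 77.7, 86.2 and 79.3 FPKM in PS libraries, so ULA replicate 3 stood apart in both. Without ULA replicate 3 the ULA vs PS log2FC of that row was -0.48, against 0.53 with it. Rps6, the protein that S6 kinase phosphorylates, was listed at 0.091 to 0.31 FPKM in OPC libraries, 0 to 0.41 FPKM in ULA libraries and 0.45 to 1.40 FPKM in PS libraries. The other row of this protein (LOC100911372) had 62.1, 9.91 and 11.5 FPKM in OPC libraries, 15.3, 19.8 and 196 FPKM in ULA libraries and 96.1, 16.2 and 128 FPKM in PS libraries, and all groups overlapped. The row of Rplp2 with the highest level (LOC100911575) had 78.8, 71.5 and 31.3 FPKM in OPC libraries, 3.86, 170.3 and 91.5 FPKM in ULA libraries and 7.84, 12.5 and 9.33 FPKM in PS libraries, so that the ULA libraries overlapped both other groups and OPC libraries stood above PS libraries without passing (limma's adjusted p = 0.0789).

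With the rows of each protein summed and the fit run again, a choice made after seeing the data, 71 proteins with a member were tested. In OPC vs PS 66 were lower and 0 higher by limma's adjusted p (66 passed an unadjusted p of 0.05), in OPC vs ULA 60 were lower and 1 higher, and in ULA vs PS 56 were lower and 0 higher (57 passed an unadjusted p of 0.05). The medians were -0.90, -0.50 and -0.48. Of the 31 tested members that are alone for their protein and lie on RefSeq's chromosome, 30 were lower in OPC vs PS, 28 in OPC vs ULA and 27 in ULA vs PS, with medians of -0.86, -0.43 and -0.48. Rps27l is among these 31. Of the 67 tested rows of ribosomal proteins under other symbols, 41 were lower (61.2%) and 2 higher in OPC vs PS. In OPC vs ULA 28 were lower (41.8%) and 2 higher. In ULA vs PS 32 were lower (47.8%) and 0 higher (34 passed an unadjusted p of 0.05). Over all genes tested 23.9%, 21.7% and 30.5% were lower in these comparisons, and 40.4%, 32.2% and 38.4% were higher. The lower shares of these rows lay between those of all genes and those of the members (93.1%, 77.8% and 77.8%).

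By role, the tested members of the P stalk, the 5S particle, the peptide tunnel, the mRNA entry and the mRNA exit were lower in OPC vs PS, except Rpl38. Of the P stalk, Rplp0 (above) and Rpl12, at the foot of the stalk, were called lower in all 3 comparisons. Rpl12 had 166, 173 and 169 FPKM in OPC libraries, 195, 241 and 207 FPKM in ULA libraries and 332, 390.3 and 335 FPKM in PS libraries, with no overlap. The row of Rplp1, which stands under another symbol (LOC100360522), had 253, 215 and 231 FPKM in OPC libraries, 313, 364 and 366 FPKM in ULA libraries and 445, 566 and 482 FPKM in PS libraries, in the same order. Rplp2, whose member row was not tested, did not keep this order in its highest row (LOC100911575, above), where OPC libraries stood above PS libraries. In its lower rows LOC498555 and LOC100362751, OPC libraries stood below PS libraries.

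Rpl5 and Rpl11, which with 5S rRNA form the particle that binds Mdm2, were lower in all 3 comparisons. Rpl5 had 196, 199 and 223 FPKM in OPC libraries, 295, 354 and 321 FPKM in ULA libraries and 369, 381 and 378 FPKM in PS libraries, and more of its difference lay between OPC and ULA (log2FC -0.64, limma's adjusted p = 4.57e-05) than between ULA and PS (log2FC -0.22, adjusted p = 0.0157). The ULA vs PS call was lost without ULA replicate 1 (log2FC -0.16). Rpl11 had 29.6, 28.0 and 31.1 FPKM in OPC libraries, 36.8, 43.4 and 39.1 FPKM in ULA libraries and 50.3, 49.3 and 49.3 FPKM in PS libraries.

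Of 8 tested members at the peptide tunnel and its exit, 7 were lower in OPC vs PS, 7 in OPC vs ULA and 6 in ULA vs PS. Rpl31, at the rim of the exit, had 91.5, 89.6 and 95.3 FPKM in OPC libraries, 128, 146 and 138 FPKM in ULA libraries and 193, 198 and 192 FPKM in PS libraries. Rpl4, which reaches into the tunnel, had 293, 295 and 321 FPKM in OPC libraries, 373, 415 and 392 FPKM in ULA libraries and 539, 551 and 556 FPKM in PS libraries. Both kept the order OPC, ULA, PS with no overlap. The exception was Rpl38, whose row had 15.4, 6.28 and 7.63 FPKM in OPC libraries, 9.17, 8.11 and 8.99 FPKM in ULA libraries and 13.4, 11.2 and 10.2 FPKM in PS libraries. Its row lies on another chromosome than the gene in RefSeq, and OPC replicate 1 was the highest of the 9 libraries.

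At the mRNA entry, Rps3 had 202, 202 and 207 FPKM in OPC libraries, 251, 289 and 285 FPKM in ULA libraries and 343, 359 and 354 FPKM in PS libraries. At the mRNA exit, Rps28 had 98.0, 103 and 102 FPKM in OPC libraries, 125, 164 and 141 FPKM in ULA libraries and 159, 163 and 170.0 FPKM in PS libraries. Rps3 kept the order with no overlap, whereas ULA and PS libraries overlapped for Rps28. Rpl3, near the center of peptide bond formation, had 136, 136 and 145 FPKM in OPC libraries, 158, 164 and 161 FPKM in ULA libraries and 217, 227 and 232 FPKM in PS libraries (log2FC -0.69 for OPC vs PS, limma's adjusted p = 1.88e-07). Rpl3l, its copy in striated muscle, was listed at 0 to 0.22 FPKM in OPC libraries, 0.17 to 0.41 FPKM in ULA libraries and 0.05 to 0.15 FPKM in PS libraries.

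Other members at the ends of the range were as follows. Rpl41, the smallest ribosomal protein and among the 5 members with the highest level, had 491, 483 and 510.0 FPKM in OPC libraries, 604, 699 and 577 FPKM in ULA libraries and 794, 835 and 898 FPKM in PS libraries, with no overlap. Rps4x, encoded on chromosome X, had 135, 143 and 155 FPKM in OPC libraries, 209.9, 232 and 215 FPKM in ULA libraries and 307, 319 and 314 FPKM in PS libraries, and a further row on chromosome 4 moved alike (log2FC -1.13 and -1.11 for OPC vs PS in the chromosome 4 and chromosome X rows). The chromosome 12 row of Rpl21 had the lowest OPC vs PS log2FC of all members, -1.48, with 60.9, 58.8 and 155 FPKM in OPC libraries, 179, 101 and 92.4 FPKM in ULA libraries and 216, 269.9 and 213 FPKM in PS libraries. OPC replicate 3 and ULA replicate 1 stood apart in it. The row named Rpl9, the tested member with the lowest mean level, carries an ID that RefSeq gives as a transcribed pseudogene and had 0.39 to 1.19 FPKM in OPC libraries, 1.595 to 2.05 FPKM in ULA libraries and 1.58 to 2.28 FPKM in PS libraries. Most of this protein's level is in another row (LOC100360449), with 85.8 to 89.4 FPKM in OPC libraries, 115 to 142 FPKM in ULA libraries and 145 to 168 FPKM in PS libraries, and its 4 rows summed to 90.2 to 94.3 FPKM in OPC libraries, 122 to 150.2 FPKM in ULA libraries and 153 to 177 FPKM in PS libraries, in order and with no overlap. The row of Rps29, whose ID RefSeq gives as a pseudogene, had 0.68 to 1.58 FPKM in OPC libraries, 0.90 to 3.21 FPKM in ULA libraries and 0.80 to 3.96 FPKM in PS libraries, with overlap throughout, while the 4 rows of this protein summed to 228 to 257 FPKM in OPC libraries, 305 to 378 FPKM in ULA libraries and 465 to 527 FPKM in PS libraries, in order and with no overlap. The chromosome 6 row of Rpl32 had 3.47 to 7.41 FPKM in OPC libraries, 5.97 to 8.20 FPKM in ULA libraries and 7.36 to 9.16 FPKM in PS libraries, and the Rpl7a row that starts at 5459160 had 2.46 to 4.47 FPKM in OPC libraries, 3.36 to 3.84 FPKM in ULA libraries and 6.15 to 7.13 FPKM in PS libraries.

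Members were also counted by the run of C or T over the annotated first base. This run can lie mostly upstream of that base or have a T there, so it is looser than a TOP tract. Of the 27 members with the run, 27 were lower in OPC vs PS, 25 in OPC vs ULA and 22 in ULA vs PS, with medians of -0.91, -0.48 and -0.48. Of the 19 tested members with a matched promoter and no such run, 19, 14 and 17 were lower, with medians of -0.83, -0.43 and -0.48. Over all genes tested 23.9%, 21.7% and 30.5% were lower in these comparisons. Rplp0, with the run, and Rps16, without it, had OPC vs PS log2FCs of -1.21 and -1.17.

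Paralogs that stand under other symbols varied. Rpl7l1, a relative of Rpl7, had 54.2, 56.5 and 59.3 FPKM in OPC libraries, 52.7, 56.3 and 55.3 FPKM in ULA libraries and 56.6, 57.2 and 56.8 FPKM in PS libraries, and passed in none of the 3 comparisons (limma's adjusted p of 0.259 to 0.91). Rpl22l1, a copy of Rpl22, had 61.5, 62.2 and 58.3 FPKM in OPC libraries, 67.9, 61.8 and 68.6 FPKM in ULA libraries and 73.8, 89.9 and 76.7 FPKM in PS libraries.

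Rack1, a scaffold protein bound to the small subunit, has 2 rows that moved in opposite directions. The row on chromosome 10 had 147, 141 and 153 FPKM in OPC libraries, 179, 206 and 194 FPKM in ULA libraries and 275, 283 and 285 FPKM in PS libraries, in the order OPC, ULA, PS with no overlap. The row on chromosome 12 had 34.0, 35.96 and 32.2 FPKM in OPC libraries, 7.92, 8.65 and 8.44 FPKM in ULA libraries and 6.85, 12.9 and 6.60 FPKM in PS libraries, so that OPC libraries stood above all others. It was a higher DEG in OPC vs ULA (log2FC 1.91, standard error 0.19, limma's adjusted p = 3.66e-05) and in OPC vs PS (log2FC 1.90, adjusted p = 1.95e-05). How reads were shared between these rows was not tested.

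Proteins of the mitochondrial ribosome, which are encoded in the nucleus but serve translation inside mitochondria, had medians near 0. Of 73 Mrpl and Mrps genes tested, 22 were lower (30.1%) and 7 higher (9.59%) in OPC vs PS, 17 lower (23.3%) and 11 higher (15.1%) in OPC vs ULA, and 26 lower (35.6%) and 15 higher (20.5%) in ULA vs PS. Over all genes tested 23.9% were lower and 40.4% higher in OPC vs PS, 21.7% and 32.2% in OPC vs ULA, and 30.5% and 38.4% in ULA vs PS. The lower counts of Mrp genes were therefore near those of all genes, and the higher counts were below them. The lists that follow are read against the same shares. Their medians were -0.06, 0.0040 and -0.05. Their summed level was 1160 ± 11.5 FPKM on OPC, 1144 ± 29.2 FPKM on ULA and 1259 ± 14.8 FPKM on PS. The summed level on OPC was 0.921 times that on PS, where that of the cytosolic members was 0.520 times.

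Of 17 tested genes of translation factors and other mRNAs with a TOP tract, 17 were lower in OPC vs PS (100%), with a median log2FC of -0.51. In OPC vs ULA 9 were lower (52.9%) and 1 higher, and in ULA vs PS 12 were lower (70.6%) and 3 higher. Tpt1, translationally controlled tumor protein, had 739, 709 and 789 FPKM in OPC libraries, 956, 1067 and 998 FPKM in ULA libraries and 1529, 1559 and 1563 FPKM in PS libraries. Eef1g, a subunit of elongation factor 1, had 279, 272 and 297 FPKM in OPC libraries, 249.8, 286 and 273 FPKM in ULA libraries and 565, 591 and 591 FPKM in PS libraries, so that OPC and ULA libraries overlapped. Pabpc1, the poly(A) binding protein, was higher in ULA vs PS, with 362, 351 and 365 FPKM in OPC libraries, 497, 546 and 517 FPKM in ULA libraries and 462, 453 and 452 FPKM in PS libraries.

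Genes of ribosome assembly were counted in the same way. Of 65 tested, 23 were lower (35.4%) and 3 higher (4.62%) in OPC vs PS, with a median of -0.13, and 34 were lower (52.3%) and 9 higher (13.8%) in ULA vs PS. In OPC vs ULA, 8 were lower (12.3%) and 22 higher (33.8%), the higher share being near that of all genes. Ddx21, an RNA helicase of rRNA synthesis and processing, had 24.2, 23.9 and 25.2 FPKM in OPC libraries, 15.3, 15.5 and 15.98 FPKM in ULA libraries and 34.0, 34.9 and 33.2 FPKM in PS libraries, with an OPC vs ULA log2FC of 0.62 and a ULA vs PS log2FC of -1.08 (limma's adjusted p = 1.67e-06 and 8.50e-09). Bysl, needed to make the small subunit, had log2FCs of 0.55 and -1.06 in these comparisons. Of 18 tested chaperones that act at the ribosome, 12 were lower (66.7%) and 1 higher in OPC vs PS. Of 9 genes of ribosome rescue and turnover, 4 were lower (44.4%) and 1 higher in OPC vs PS.

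Among regulators of growth, Myc, a transcription factor that drives ribosome production, had 11.6, 10.5 and 12.4 FPKM in OPC libraries, 15.02, 16.7 and 14.6 FPKM in ULA libraries and 43.0, 40.7 and 43.7 FPKM in PS libraries, in the same order as the ribosomal proteins. Ddit4, which restrains mTORC1, had 98.1, 88.4 and 91.8 FPKM in OPC libraries, 103, 79.2 and 92.4 FPKM in ULA libraries and 25.5, 26.8 and 24.9 FPKM in PS libraries. Another such regulator, Sesn2, was lower in ULA vs PS (limma's adjusted p = 2.16e-08), where Ddit4 was higher (adjusted p = 5.49e-08). Mxi1 was higher in ULA vs PS (adjusted p = 5.69e-09) and Sesn3 was higher in OPC vs PS (adjusted p = 3.86e-08). Eif4ebp1, which blocks cap-dependent initiation, had 43.5, 39.3 and 39.99 FPKM in OPC libraries, 99.4, 114 and 116 FPKM in ULA libraries and 103, 109 and 107 FPKM in PS libraries, with OPC libraries lowest and ULA and PS libraries overlapping. Of 25 such genes tested, 6 were lower (24%) and 15 higher (60%) in OPC vs PS, 7 lower (28%) and 7 higher (28%) in OPC vs ULA, and 8 lower (32%) and 10 higher (40%) in ULA vs PS. Other than the higher share in OPC vs PS, these lie near the shares of all genes.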

How the data were processed

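RNA was sequenced from 3 cultures on each of the OPC, ULA and PS substrates. The authors deposited 1 table of values per gene and library, taken here as FPKM from the values themselves. The submitters' notes name HISAT2 2.1, StringTie 1.3.0 and rn6, and the study's methods name featureCounts. The tool behind the values and its use of strand were not given in the sources used here. Overlapping genes and copies may therefore share reads. The number of value columns that matched no sample was 0.

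The 12513 genes with at least 1 FPKM in at least 3 libraries were transformed to log2(FPKM + 1), a scale that understates the change of low genes. The 3 groups entered a single limma model (limma 3.58.1, R 4.3.3, trended empirical Bayes, residual degrees of freedom 6) with two-sided tests and Benjamini-Hochberg adjustment. DEGs were those with a log2FC of 1 or more in size on this scale and adjusted significance at 0.05. The study gives this cut with adjusted P in its methods and with non-adjusted P in a figure legend, for its own test of read counts. The fit was tested on simulated data. Relative depth came from the steps between values under 0.3 FPKM. Summaries were made in Python 3.11.15.

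The members and gene lists were chosen with earlier results of these data known. Named members were the 5 highest and 5 lowest log2FC of each comparison, members that departed from the rest, members with a listed role, and the highest and lowest levels. Of each other list, up to 3 genes in each direction with the smallest adjusted p could be named. Rpl22, Rpl36, Rps21, Rps27l and further rows of the members' proteins were named from their values. Alternatives were other scalings, pseudocounts, filters and member sets, each replicate left out, and a replicate block. Summing rows of 1 protein, and keeping rows alone for their protein, were chosen after seeing the data. A few list genes and members, the counts of 2 lists and 1 planned member set are not reported here.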

Additional observations from a re-analysis of the deposited data

How the results depend on the processing

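The direction of the member medians was the same under all alternatives. The OPC vs PS median was -1.02 with median-ratio rescaling, -0.97 with upper-quartile rescaling and -0.96 with a total without members and mitochondrial genes. The OPC vs ULA median was -0.55 with upper-quartile rescaling. The ULA vs PS median was -0.55 with median-ratio rescaling and -0.59 with the total without members and mitochondrial genes. With no filter the ULA vs PS difference of large minus small subunit medians was 0.15. Leaving out each replicate gave medians of -0.92 to -0.87 for OPC vs PS, -0.53 to -0.41 for OPC vs ULA and -0.53 to -0.41 for ULA vs PS, and 65 to 68, 56 to 59 and 52 to 57 members called lower. Members called higher were then 0 for OPC vs PS, 1 to 2 for OPC vs ULA and 0 to 1 for ULA vs PS. With a fold threshold 23, 1 and 1 members were lower for OPC vs PS, OPC vs ULA and ULA vs PS and 0 were higher. Rows alone for their protein gave 30, 28 and 27 lower, and 0 higher for ULA vs PS. The 1 call higher in ULA vs PS (Rpl30) was lost with median-ratio rescaling, with the total without members and mitochondrial genes, and with rows summed. It was also lost without PS replicate 2 or ULA replicate 3, each of these giving 0. The Rpl30 row was outside the member set of at least 100 FPKM, which also gave 0. The 1 call higher in OPC vs ULA (Rps27l) was outside the member sets of at least 100 FPKM or without paralogs, each giving 0. Departing members numbered 5 when centred on the mean, 13 with no filter and 7 to 12 without 1 replicate each, against 8. Member shares with all rows of each protein were 3.15, 4.23 and 6.02% for OPC, ULA and PS libraries, without mitochondrial genes 2.84, 3.78 and 5.57%, and without 1 replicate each 2.48 to 2.56, 3.30 to 3.52 and 4.88 to 4.93%. Single values that changed sign without 1 replicate each were Rpl7a on chromosome 3 (-0.48 to 1.07 for ULA vs PS, lowest without ULA replicate 3), Rack1 on chromosome 12 (-0.16 to 0.27 for ULA vs PS, highest without PS replicate 2), LOC100361933 (-0.61 to 0.37 for ULA vs PS, lowest without PS replicate 1) and LOC100911575 (-1.14 to 1.43 for OPC vs ULA, lowest without ULA replicate 1). The causes were not tested. With a replicate block 57, 66 and 56 members were lower for OPC vs ULA, OPC vs PS and ULA vs PS, and the block changed 1, 1 and 2 calls. Same-numbered libraries did not deviate together (r of -0.039 to 0.054 over 9 pairs), so the numbers were not taken to pair them. A count test with DESeq2 was not run, since the values are not counts. Calls at the adjusted p of 0.05 were compared over the refits of single rows. Calls and directions of 68, 61 and 59 of the 72 members were the same in all of these for OPC vs PS, OPC vs ULA and ULA vs PS. This count leaves out the fold threshold, under which most lower calls were lost. Unknown depth and strand limit what can be said of single members.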
